A study of Mus musculus with 19 samples.

Results

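The keratin genes Krt7, Krt8, Krt18, Krt19, Krt15, Krt23 and Krt80, which belong to simple or stressed epithelium, were followed in sorted alveolar type II (AT2) cells and in lung tissue of mice with and without a conditional Etv5 genotype. They were chosen by symbol with earlier results of these data known, and all 7 were found among the 36528 Entrez gene IDs of the count tables. Polyadenylated RNA had been sequenced in 19 libraries: 4 AT2 control, 5 AT2 Etv5KO, 5 lung control and 5 lung Etv5KO. Control mice carried SpcCreERT2, a Cre recombinase driven by the surfactant protein C promoter and active only with tamoxifen, together with RosatdTomato, a red reporter. Etv5KO mice carried both of these and Etv5ko/loxp, which is 1 knockout allele and 1 loxP-flanked allele of Etv5. All mice, controls included, received tamoxifen at 100 mg/kg on 5 days and were left for a further 5 days. AT2 cells were sorted as EpCAM+, tdTomato+, CD45- and CD31-. The lung libraries hold every cell type of the organ, including cells in which this Cre is not made. In Etv5KO mice the knockout allele does not depend on this Cre. The genotype contrasts cannot tell that allele apart from deletion of the loxP-flanked allele. The labels give no age, sex or strain, and they do not tie a library to a mouse. The design names 5 mice per genotype, and the fifth AT2 control library was not analysed here.

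Keratins are the intermediate filament proteins of epithelial cells, and a filament needs a partner from each class, an acidic type I and a basic type II chain. Krt7, Krt8 and Krt80 are type II, and Krt18, Krt19, Krt15 and Krt23 are type I. Krt8 and Krt18 form the basic filament pair of single-layered epithelia. Krt7 and Krt19 are added in ducts, airways and mesothelium, and Krt19 also pairs with Krt8. Krt15 is known from basal keratinocytes. Krt23 is induced in stressed liver, and Krt80 is found in many epithelia. In the alveolus, high Krt8 marks cells on the way from AT2 cells, which make surfactant, to the flat AT1 cells that exchange gas. Etv5 is a transcription factor of the ETS family, whose members bind DNA around the letters GGAA. In the gene table used for names (assembly GRCm38.p6), Krt18 lies next to Krt8 and Krt80 next to Krt7 on chromosome 15, and Krt15 next to Krt19 on chromosome 11.

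The promoters of both members that passed the test in AT2 cells are shown because the libraries differ in an ETS factor genotype. Each is the 250 bases before the gene's start in RefSeq (GRCm38.p6), read along the gene's strand, with GGAA or its complement TTCC in capitals. The Krt7 window is chr15:101412153-101412402 on the plus strand, and the Krt23 window is chr11:99493121-99493370 on the minus strand.
Krt7: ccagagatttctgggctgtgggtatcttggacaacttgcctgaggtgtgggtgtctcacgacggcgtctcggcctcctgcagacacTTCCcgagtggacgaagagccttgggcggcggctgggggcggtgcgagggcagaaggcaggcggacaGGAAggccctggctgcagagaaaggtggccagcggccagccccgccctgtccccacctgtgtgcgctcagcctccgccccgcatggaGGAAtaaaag
Krt23: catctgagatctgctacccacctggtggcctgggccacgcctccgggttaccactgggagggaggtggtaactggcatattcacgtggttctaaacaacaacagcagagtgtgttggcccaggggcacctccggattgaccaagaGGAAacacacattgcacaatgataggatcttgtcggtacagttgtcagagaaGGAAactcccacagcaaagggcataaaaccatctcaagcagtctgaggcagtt
The Krt7 window holds GGAA at 3 places and the Krt23 window at 2, counting both strands. GGAA occurs in 93.5% of 32841 windows of this length, with a median of 3 matches, so its presence sets neither gene apart. The longer AGGAAG, which contains GGAA, was found at position -98 from the start of Krt7 and at -204 from that of Krt8, but not in the windows of Krt18 and Krt23; 29.5% of all windows hold it. CCGGAAG, which also contains GGAA, was in none of these 4 windows, against 6.91% of all. TGANTCA, an AP-1 motif, was in none of the 4, against 6.75%. Krt15, Krt19 and Krt80 were not among the promoter entries used here. A match describes the letters and does not show that a factor binds there.

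Total counts per library ran from 14971793 to 28671262. Levels are given in CPM, read counts relative to each library's total after trimmed-mean (TMM) scaling over all 19 libraries, and fold changes come from edgeR's quasi-likelihood test of each comparison, called at a Benjamini-Hochberg adjusted p under 0.05 over all genes tested. The level of Etv5 itself did not check the genotype labels. It was 667 ± 36.1 CPM (SD, n = 4) in AT2 control and 714 ± 58.4 CPM (n = 5) in AT2 Etv5KO libraries (log2 fold change 0.10, SE 0.08, edgeR adjusted p = 0.505). In lung it was 104 ± 7.20 and 113 ± 10.8 CPM (n = 5 each). The reads count over the whole gene model, so reads outside the deleted stretch are included. The part of this in the level of Etv5 was not tested. On the second principal component of the AT2 libraries, AT2 control replicate 2 lay far from its group. On the first component it was at -7.19, between the other AT2 controls (-28.89 to -21.26) and the AT2 Etv5KO libraries (6.98 to 24.55). Where leaving this library out changed a keratin call or sign, both values are given.

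In AT2 cells, Krt23 fell and Krt7 rose with the Etv5KO genotype, and the other 5 keratins did not pass the test. Krt23 was 193, 140.2, 187 and 146 CPM in the 4 control libraries and 77.9, 61.6, 68.4, 82.4 and 67.4 CPM in the 5 Etv5KO libraries. Every Etv5KO value was under the lowest control value. The mean went from 167 ± 27.5 to 71.6 ± 8.43 CPM, 2.32-fold lower (log2 fold change -1.21, SE 0.12, 95% interval -1.47 to -0.96, edgeR adjusted p = 6.59e-05). Krt23 was the second most abundant of the 7 per length in AT2 controls, at 102 ± 16.9 nRPKM, the authors' RPKM adjusted by a size factor. In AT2 Etv5KO libraries it was 44.3 ± 5.30 nRPKM and its rank among all genes went from 494 to 1397. In bulk RNA, fewer cells of a type and less RNA per cell cannot be told apart.

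Krt7, a type II keratin of ducts and airways, was 125, 166, 132 and 124 CPM in AT2 control and 181, 235, 218, 199 and 217 CPM in AT2 Etv5KO libraries. The lowest Etv5KO library lay above the highest control, which was AT2 control replicate 2. The mean rose from 137 ± 20.0 to 210.2 ± 20.5 CPM, 1.54-fold (log2 fold change 0.63, SE 0.10, 95% interval 0.40 to 0.86, edgeR adjusted p = 0.00272). Without AT2 control replicate 2 the log2 fold change of Krt7 was 0.74 (edgeR adjusted p = 0.000328) and that of Krt23 was -1.29 (5.08e-05). Over all 16 alternatives the adjusted p stayed at or below 0.0121 for Krt7 and 0.000398 for Krt23.

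These 2 of 7 keratins stand against a background in which 9.87% of 14939 genes tested were called in AT2 cells, 5.03% of them higher and 4.84% lower. The groups did not overlap for 12.4% of genes. The median log2 fold change was 0.17 over the 7 keratins and -0.01 over all genes tested. The 7 were chosen with earlier results of these data known, and Krt7 in AT2 cells was among those results. The count of 2 and the median therefore describe the list and do not test it. Scaled by library size alone, the calls over all genes were 894 higher and 482 lower, against 751 and 723 with TMM, and the same 2 keratins were called.

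**Figure D1:**
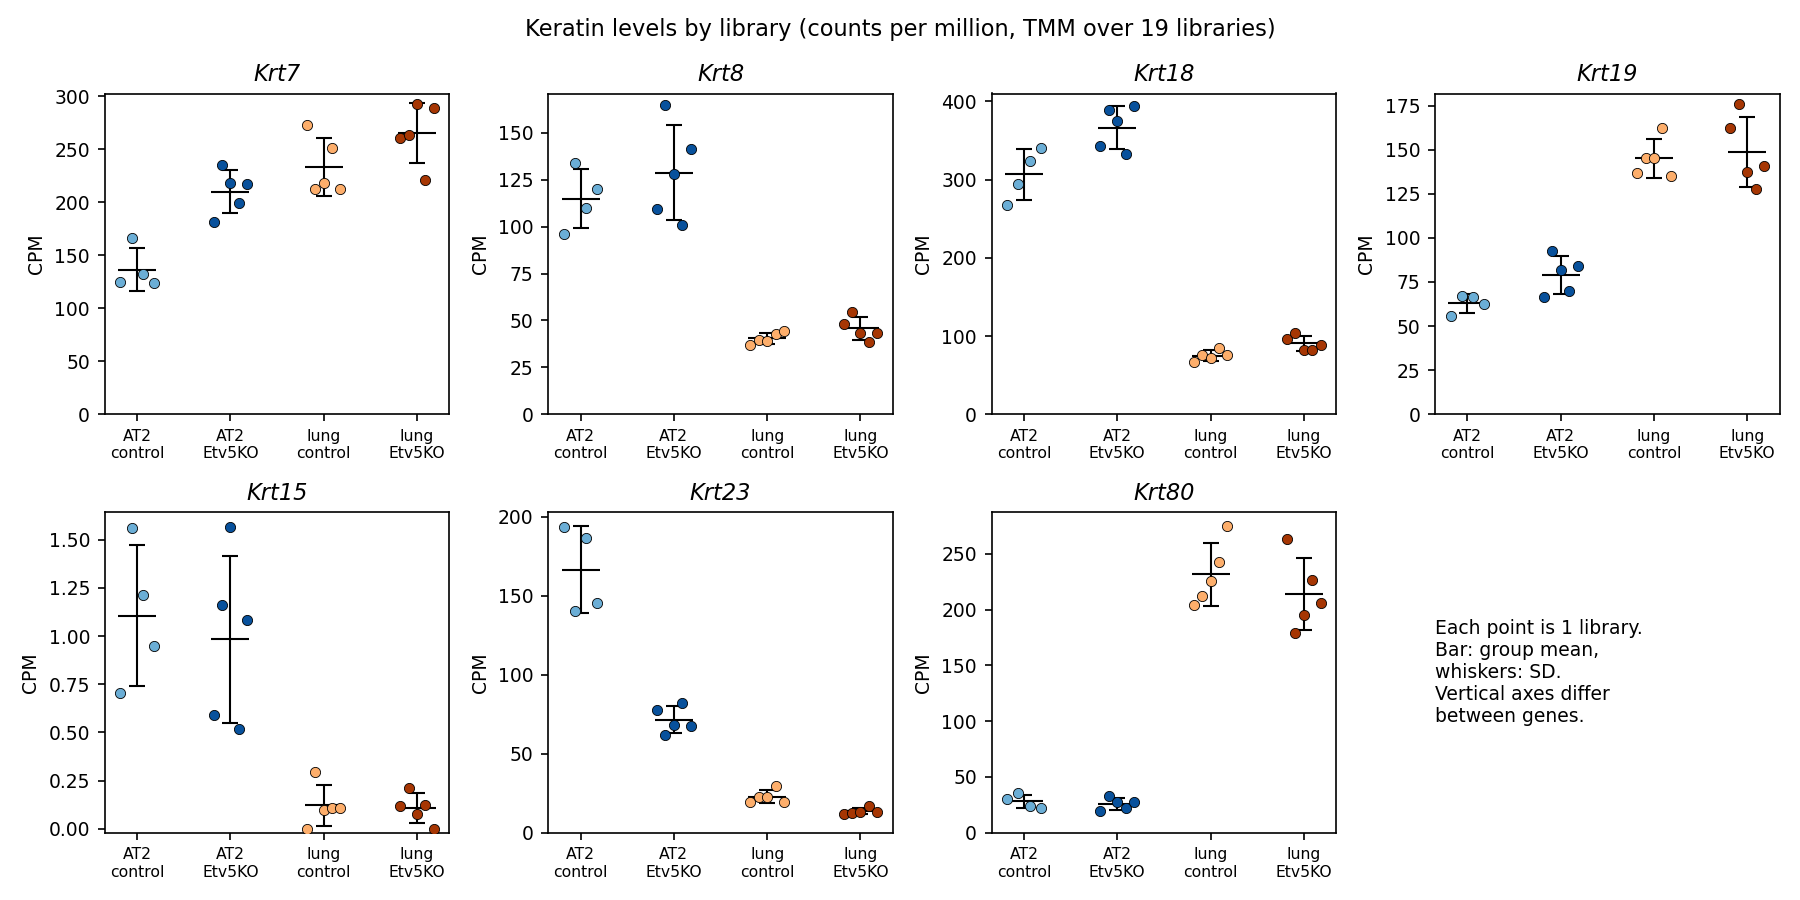
Level of each of the 7 keratins in CPM (TMM-scaled) in every library, by group. Points are libraries and lines are group means with SD; Krt23 is between 140.2 and 193 CPM in AT2 control and between 61.6 and 82.4 CPM in AT2 Etv5KO libraries.

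The filament pair of simple epithelia moved less. Krt18 was 267, 295, 323 and 341 CPM in AT2 control and 342, 388, 375, 333 and 394 CPM in AT2 Etv5KO libraries. Of the Etv5KO libraries, 4 of 5 lay above every control and 1 lay within the control range. Its change, 0.26 on the log2 scale (SE 0.09, 95% interval 0.08 to 0.45), missed the threshold (edgeR adjusted p = 0.0821). Its type II partner Krt8 was 96.1, 134, 110.2 and 119.9 CPM in controls and 109, 165, 128, 101 and 141 CPM in Etv5KO libraries. The groups overlapped (log2 fold change 0.17, SE 0.14, 95% interval -0.14 to 0.48, edgeR adjusted p = 0.545). Without AT2 control replicate 2 the log2 fold change of Krt8 was 0.25 (edgeR adjusted p = 0.311, with a range of 0.311 to 0.800 over 16 alternatives).

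Krt19, the type I partner of Krt7 in ducts and airways, was 55.5, 66.9, 66.6 and 62.5 CPM in AT2 control and 66.3, 92.6, 82.0, 70.1 and 84.0 CPM in AT2 Etv5KO libraries. Of the Etv5KO libraries, 4 of 5 exceeded every control, but the change missed the threshold (log2 fold change 0.34, SE 0.10, 95% interval 0.11 to 0.56, edgeR adjusted p = 0.0612). DESeq2 called both Krt18 (adjusted p = 0.0326) and Krt19 (0.0279), so that 4 of the 7 passed there. Over the 16 alternatives the adjusted p ran from 0.0326 to 0.222 for Krt18 and from 0.0279 to 0.168 for Krt19. Krt19 also passed without AT2 Etv5KO replicate 1 (edgeR adjusted p = 0.0293) and in the fit of all 19 libraries (0.0474).

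Krt80 and Krt15 were low in AT2 cells and showed no called change. Krt80 was 30.7, 35.4, 24.3 and 22.5 CPM in AT2 control and 19.4, 33.0, 27.9, 21.9 and 27.9 CPM in AT2 Etv5KO libraries (log2 fold change -0.11, SE 0.17, 95% interval -0.48 to 0.26, edgeR adjusted p = 0.777). The ranges overlap. Its gene overlaps Gm35853 and Mir1941 in the gene table, and since the strand setting of the counting is not given, reads of these genes cannot be told apart. Krt15, the basal keratin, had 13, 32, 28 and 16 reads in AT2 control and 9, 22, 37, 9 and 21 reads in AT2 Etv5KO libraries. At this depth only a large change would be visible: the log2 fold change was -0.14 with a 95% interval from -0.89 to 0.61 (edgeR adjusted p = 0.867), and its sign turned to 0.08 without AT2 control replicate 2 and to 0.02 without AT2 Etv5KO replicate 4. The sign for Krt80 also turned, to 0.02, without AT2 control replicate 2.

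Markers of other epithelial cells moved with the same contrast in AT2 cells. Of 10 AT1 markers tested, 6 rose and 1 fell, and their summed level was 4731 to 5759 CPM in controls and 6839 to 7264 CPM in Etv5KO libraries. The AT1 sums were mostly Ager, at a mean of 2241 and 2994 CPM, and Cldn18, at 1424 and 1917 CPM. Both were lower in lung control (1602 and 707 CPM). Between control AT2 cells and control lung, 3 AT1 markers were called higher in AT2 cells and 7 lower. Counts of markers are edgeR calls unless another tool is named. Of 12 genes of transitional alveolar epithelium, 6 rose and 2 fell, with summed levels of 879 to 1084 and 828 to 1232 CPM. Of 8 airway secretory markers 3 rose (5 were called by DESeq2), with summed levels of 3782 to 5406 and 5704 to 7672 CPM. These sums were mostly Cbr2, at a mean of 4384 and 5860 CPM, which was lower in lung control (1945 CPM). Scgb1a1 was at 407 and 458 CPM in AT2 control and AT2 Etv5KO libraries. Of 7 ciliated cell markers 2 rose (114 to 131 and 171 to 228 CPM), and 3 had an unadjusted p under 0.05 with edgeR, all higher. The ciliated sums were mostly Tppp3, at a mean of 96.2 and 153 CPM (250 CPM in lung control). Dynlrb2 was at 16.6 and 26.3 CPM and was lower in lung control (14.0 CPM). Foxj1 was at 2.81 and 2.72 CPM and Ccdc39 at 5.12 and 5.31 CPM. Of 6 mesothelial markers 4 could be tested and 1 rose with edgeR, 2 with DESeq2 and 0 with limma-voom (9.14 to 16.6 and 16.9 to 26.0 CPM), and of 6 leukocyte markers 5 could be tested and 1 rose (1407 to 3008 and 776 to 1824 CPM, mostly Lyz1, at a mean of 2328 and 1216 CPM). DESeq2 called 2 of these leukocyte markers, and with edgeR 1 higher and 1 lower had an unadjusted p under 0.05. Lyz1 was only 257 CPM in lung control. Between control AT2 cells and control lung, 1 leukocyte marker was called higher in AT2 cells and 5 lower. Of 10 AT2 markers 3 fell and DESeq2 called 6 (165708 to 258749 and 149024 to 193626 CPM). Basal cell markers were low in both groups: the 6 summed to 0.534 to 0.650 CPM in controls and 0.921 to 1.64 CPM in Etv5KO libraries, without overlap. Only 1 of the 6 could be tested (log2 fold change 0.91). It had an unadjusted p under 0.05 with edgeR and was not called by edgeR, DESeq2 or limma-voom. Krt17 had no read in any AT2 control and a mean of 0.0719 CPM in AT2 Etv5KO libraries. Aqp3 was the largest part of the basal sums, at a mean of 0.327 and 0.635 CPM. Trp63 was at 0.158 and 0.133 CPM, Ngfr at 0.0541 and 0.158, Krt5 at 0.0378 and 0.171, and Krt14 at 0.0122 and 0.0575. None of the 6 endothelial markers (79.3 to 121 and 82.5 to 137 CPM) or the 6 mesenchymal markers (42.4 to 70.2 and 51.2 to 95.02 CPM) was called by edgeR, DESeq2 or limma-voom; 1 and 2 of them had an unadjusted p under 0.05 with edgeR. The part of these markers in the keratin results was not tested.

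In whole lung, Krt23 was also lower with the Etv5KO genotype and no other keratin passed. Lung contains AT2 cells, and the labels do not tie libraries to mice. The lung result therefore cannot be taken as independent of that in AT2 cells. Krt23 was 19.8, 22.9, 22.6, 29.7 and 19.4 CPM in lung control and 11.8, 12.8, 12.9, 16.7 and 13.4 CPM in lung Etv5KO libraries. The highest Etv5KO value was under the lowest control value. The mean went from 22.9 ± 4.14 to 13.5 ± 1.87 CPM, 1.70-fold lower (log2 fold change -0.77, SE 0.13, 95% interval -1.04 to -0.49, edgeR adjusted p = 0.0221). The background was 0.415% of 17098 genes called, 0.205% higher and 0.211% lower, and 1.52% of genes had groups that did not overlap. The call was lost, with the log2 fold change still negative, on leaving out lung control replicate 2 or 3 or lung Etv5KO replicate 1, 2, 3 or 5; the adjusted p over 17 alternatives ran from 6.48e-06 to 0.0667 and the log2 fold change from -0.86 to -0.66. Of 10 AT2 markers, 1 was called lower in lung Etv5KO libraries (24672 to 32018 CPM summed in control and 20989.5 to 29419.8 CPM in Etv5KO), and 1 of 12 transitional genes was called lower (564 to 687 and 592 to 689.8 CPM). DESeq2 called 3 of the AT2 markers and 2 of the transitional genes in lung. With edgeR, 4 AT2 markers (all lower) and 3 transitional genes (2 higher, 1 lower) had an unadjusted p under 0.05 in lung. None of the airway secretory, ciliated or mesothelial markers was called there by edgeR, DESeq2 or limma-voom, and 0 of them had an unadjusted p under 0.05 with edgeR. Of 10 AT1 markers, edgeR and limma-voom called 0 and DESeq2 called 1; 2 had an unadjusted p under 0.05 with edgeR. The part of these marker changes in the Krt23 result was not tested.

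The other 5 keratins tested in lung had log2 fold changes between -0.12 and 0.26. Krt18 had the largest: it was 66.5, 75.4, 72.4, 85.3 and 75.6 CPM in control and 95.6, 104, 81.7, 81.7 and 88.8 CPM in Etv5KO lung. Of the Etv5KO libraries, 3 of 5 exceeded every control (log2 fold change 0.26, SE 0.08, 95% interval 0.08 to 0.45, edgeR adjusted p = 0.462). Krt7 was 273, 212, 218, 251 and 212 CPM in control and 260.4, 263, 293, 221 and 289 CPM in Etv5KO lung, with overlapping ranges (log2 fold change 0.18, 95% interval -0.03 to 0.38, edgeR adjusted p = 0.973). Krt8 was 36.7 to 44.3 CPM in control and 38.6 to 54.6 CPM in Etv5KO lung (log2 fold change 0.17, 95% interval -0.03 to 0.37). Krt19 was 135 to 162 and 128 to 176 CPM (log2 fold change 0.03, 95% interval -0.16 to 0.23), and Krt80 was 204 to 275 and 179 to 263 CPM (-0.12, 95% interval -0.37 to 0.12). Krt15 did not pass the count filter in lung: it had 0, 5, 3, 3 and 2 reads in control and 3, 5, 2, 3 and 0 reads in Etv5KO libraries, and a count of 0 allows up to 0.127 CPM in each of the 2 libraries without a read, taking 3 reads as the limit. That limit covers counting error only.

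**Figure D2:**
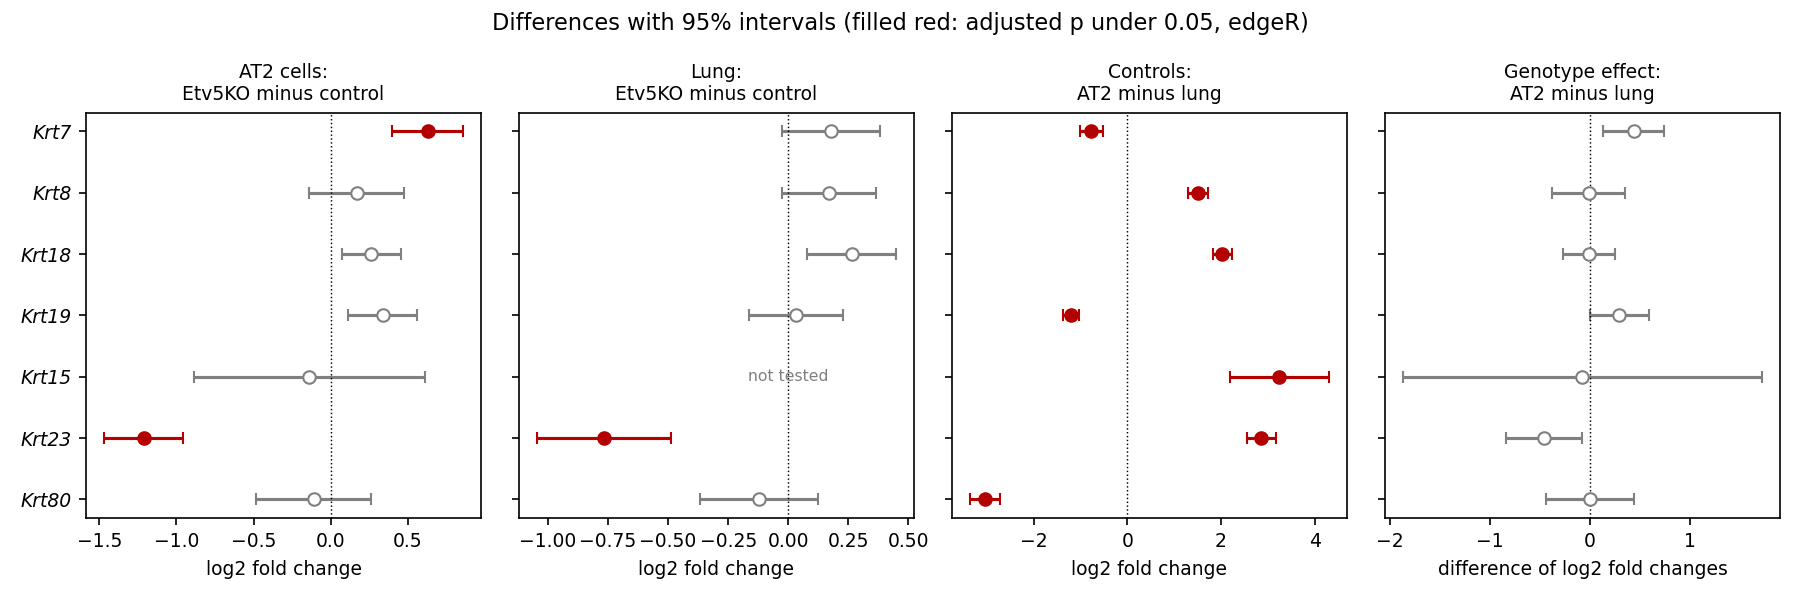
Estimated log2 fold change and 95% interval of each keratin for Etv5KO against control in AT2 cells and in lung, for control AT2 cells against control lung, and for the difference of the genotype effects. Filled points passed the edgeR threshold; Krt23 is at -1.21 in AT2 cells and at -0.77 in lung.

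Whether the genotype effect itself differed between AT2 cells and lung was tested as an interaction over all 19 libraries, treated as independent. No keratin passed with edgeR, DESeq2 or limma-voom, while 1.59% of 17698 genes did with edgeR (0.791% higher, 0.802% lower); 2 of the 7 keratins had an unadjusted p under 0.05. The effect on Krt7 was larger in AT2 cells than in lung by 0.44 on the log2 scale (SE 0.15, 95% interval 0.13 to 0.74, edgeR adjusted p = 0.197), and without AT2 control replicate 2 it passed at 0.57 (edgeR adjusted p = 0.0347, with a range of 0.0347 to 0.313 over 25 alternatives). The effect on Krt23 was lower in AT2 cells by 0.46 (interaction -0.46, SE 0.18, 95% interval -0.83 to -0.08, edgeR adjusted p = 0.328). For Krt8 and Krt18 the difference was -0.01 each, with SE 0.17 and 0.12, and its sign changed with the scaling. Without AT2 control replicate 2 the difference for Krt8 was 0.097 (edgeR adjusted p = 0.880). For Krt19 it was 0.29 (SE 0.14, 95% interval -0.00037 to 0.59, edgeR adjusted p = 0.504). For Krt15 it was -0.07 (SE 0.86, 95% interval -1.86 to 1.72), which at its low counts leaves even the direction unknown. Without AT2 control replicate 2 the difference for Krt15 was 0.16 (edgeR adjusted p = 0.966). For Krt80 it was 0.00 with a 95% interval from -0.44 to 0.44. So the rise of Krt7 was called in AT2 cells and not in lung, but the effects were not shown to differ.

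Without the Etv5 genotype, AT2 cells and whole lung had very different keratins. In control libraries Krt8, Krt18, Krt23 and Krt15 were higher in AT2 cells, and Krt7, Krt19 and Krt80 were higher in lung; for all 7 the groups did not overlap. These 7 calls stand against 74.5% of 17118 genes called in this comparison (35.6% higher in AT2, 38.9% lower) and 66.5% with no overlap, so the number of calls is not a result about keratins. Krt23 was 7.27-fold higher in AT2 cells (log2 fold change 2.86, SE 0.14, edgeR adjusted p = 3.94e-09). Krt18 was 4.08-fold higher (log2 2.03, SE 0.09) and Krt8 2.84-fold higher (log2 1.51, SE 0.10). Krt15 was higher by 3.25 on the log2 scale (SE 0.48), from 89 reads over 4 AT2 libraries and 13 over 5 lung libraries. In the other direction Krt80 was 8.20-fold lower in AT2 cells (log2 fold change -3.04, SE 0.15, edgeR adjusted p = 3.17e-09), at 30.7, 35.4, 24.3 and 22.5 CPM against 204, 212, 226, 242 and 275 CPM in lung. Krt19 was lower in AT2 cells by a log2 fold change of -1.21 (SE 0.08), at 55.5 to 66.9 CPM against 135 to 162 CPM. Krt7 was 1.71-fold lower (log2 -0.77, SE 0.11), at 124 to 166 CPM against 212 to 273 CPM. Scaling by library size alone moved the median of all genes by -0.41 on the log2 scale and the calls to 3318 higher and 9484 lower, against 6092 and 6662; the directions of all 7 keratins held under that scaling and under the other 15 alternatives.

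Lung tissue carries the cell types that AT2 sorting removes. In control lung the summed airway secretory markers were 15126 to 28808 CPM and the ciliated markers 324 to 463 CPM. The mesothelial markers were 221 to 339 CPM. All of these were above the AT2 control ranges given above. The endothelial markers were 3754 to 4708 CPM in lung against 79.3 to 121 CPM. The airway secretory sum in lung was mostly Scgb1a1, at a mean of 20576 CPM. Its single members were split: edgeR called 3 of 8 as more abundant in lung and 4 as more abundant in AT2 cells. All 10 AT2 markers were higher in AT2 cells (165708 to 258749 CPM summed, against 24672 to 32018 CPM in lung), which checks the tissue labels. The share of each cell type in the keratin levels of lung was not tested.

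Ordered by mean CPM, Krt23 was highest in AT2 control, then AT2 Etv5KO, lung control and lung Etv5KO, and no neighbours in that order overlapped. Krt8 and Krt18 ran from AT2 Etv5KO through AT2 control and lung Etv5KO to lung control, and their only gap lay between tissues. Krt7 ran from lung Etv5KO through lung control and AT2 Etv5KO to AT2 control. Its only gap was the last one: the AT2 Etv5KO libraries, at 181 to 235 CPM, overlapped with the lung control libraries, at 212 to 273 CPM. Krt19 had the same order as Krt7, with a gap between tissues only. Krt80 was highest in lung control and lowest in AT2 Etv5KO libraries, and Krt15 highest in AT2 control and lowest in lung Etv5KO libraries, each with a gap between tissues only.

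Per length, which allows genes to be compared, Krt18 led in AT2 cells and Krt7 in lung. In AT2 controls the levels were 157 ± 15.5 nRPKM for Krt18, 102 ± 16.9 for Krt23, 68.4 ± 10.1 for Krt7, 59.8 ± 8.20 for Krt8, 42.9 ± 3.37 for Krt19, 7.72 ± 1.67 for Krt80 and 0.603 for Krt15. In lung controls they were 120.4 ± 13.6 for Krt7, 102 ± 7.83 for Krt19, 65.3 ± 8.27 for Krt80, 39.8 ± 3.78 for Krt18, 21.7 ± 1.75 for Krt8 and 14.4 ± 2.63 for Krt23. The 7 together summed to 438.5 ± 14.6 nRPKM in AT2 control, 473 ± 40.9 in AT2 Etv5KO, 364 ± 21.0 in lung control and 384 ± 25.2 in lung Etv5KO libraries.

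Within that sum, type II chains made up 31.0% ± 3.67 (SD, n = 4) in AT2 control and 38.4% ± 1.97 (n = 5) in AT2 Etv5KO libraries, with ranges of 28.5% to 36.4% and 36.2% to 41.4% that overlap. Without AT2 control replicate 2 the control range was 28.5% to 29.8%, below every Etv5KO library. In lung the type II share was 57.1% ± 2.36 in controls and 58.0% ± 2.80 in Etv5KO libraries. Krt8 and Krt18 together held 49.5% ± 3.71 of the sum in AT2 control and 54.8% ± 1.48 in AT2 Etv5KO libraries, against 16.9% ± 1.05 and 18.9% ± 1.28 in lung. Krt7 and Krt19 together held 25.4% ± 2.36 and 34.1% ± 1.18 in AT2 cells, against 61.2% ± 2.97 and 63.0% ± 2.56 in lung. The ratio of Krt7 to Krt8 was 1.15 ± 0.110 in AT2 control, 1.60 ± 0.196 in AT2 Etv5KO and 5.59 ± 0.960 in lung control libraries. The ratio of Krt8 to its partner Krt18 was 0.381 ± 0.0527 in AT2 control and 0.547 ± 0.0323 in lung control libraries. These shares sum up the genes already described and were not tested.

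**Figure D3:**
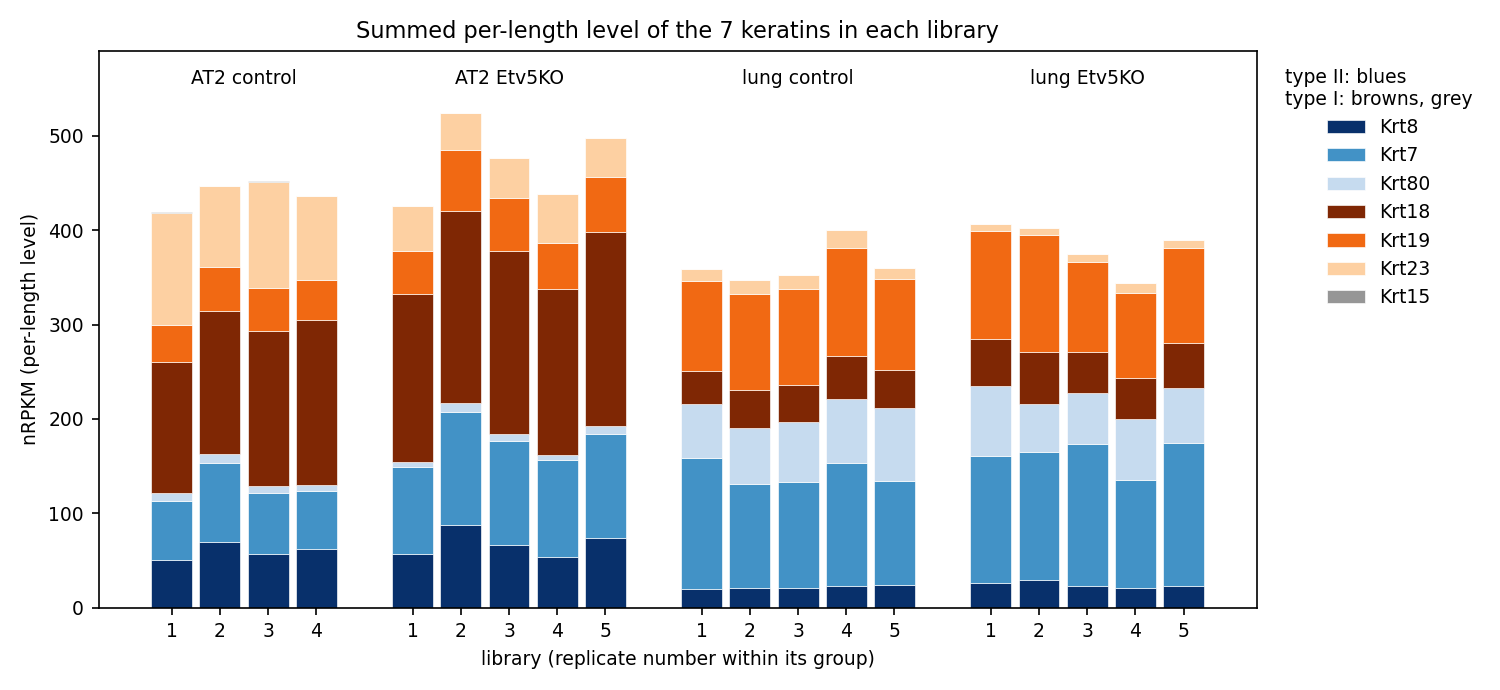
Per-length level (nRPKM) of the 7 keratins, stacked for each of the 19 libraries. Blue segments are type II and brown or grey segments type I chains; Krt18 is the tallest segment in every AT2 library, and Krt7 in every lung library.

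The keratins also varied between libraries of the same group. With each group's mean subtracted from log2(CPM + 1), all 42 pairs of members (21 in each tissue) were correlated over 9 AT2 or 10 lung libraries, with exact two-sided permutation of the libraries within genotype and Benjamini-Hochberg adjustment over the 42. Of these, 4 passed. In lung, Krt18 and Krt19 had Pearson r = 0.89 and Spearman rho = 0.77 (exact permutation p = 0.00306 and 0.0228, adjusted p for r = 0.0438), and r was 0.73 without the 2 libraries farthest from the median. In lung, Krt8 and Krt18 had r = 0.86 and rho = 0.87 (exact permutation p = 0.00417 and 0.00549, adjusted p = 0.0438), and r = 0.78 without those 2. In AT2 cells, Krt8 and Krt23 moved oppositely, with r = -0.90 and rho = -0.93 (exact permutation p = 0.000347, the smallest these permutations can give, and 0.000694, adjusted p = 0.0146), and r = -0.89 without the 2. Also in AT2 cells, Krt7 and Krt80 had r = 0.85 and rho = 0.80 (exact permutation p = 0.00417 and 0.0215, adjusted p = 0.0438), and r = 0.70 without the 2. The same pairs in the other tissue gave 0.73 for Krt18 and Krt19, 0.69 for Krt8 and Krt18, -0.28 for Krt8 and Krt23, and -0.40 for Krt7 and Krt80. Without AT2 control replicate 2, r in AT2 cells was 0.84 for Krt8 and Krt18, -0.89 for Krt8 and Krt23 and 0.82 for Krt7 and Krt80. The genes of a pair were read in the same libraries and so share their depth and cell makeup, and the part of these was not tested.

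**Figure D4:**
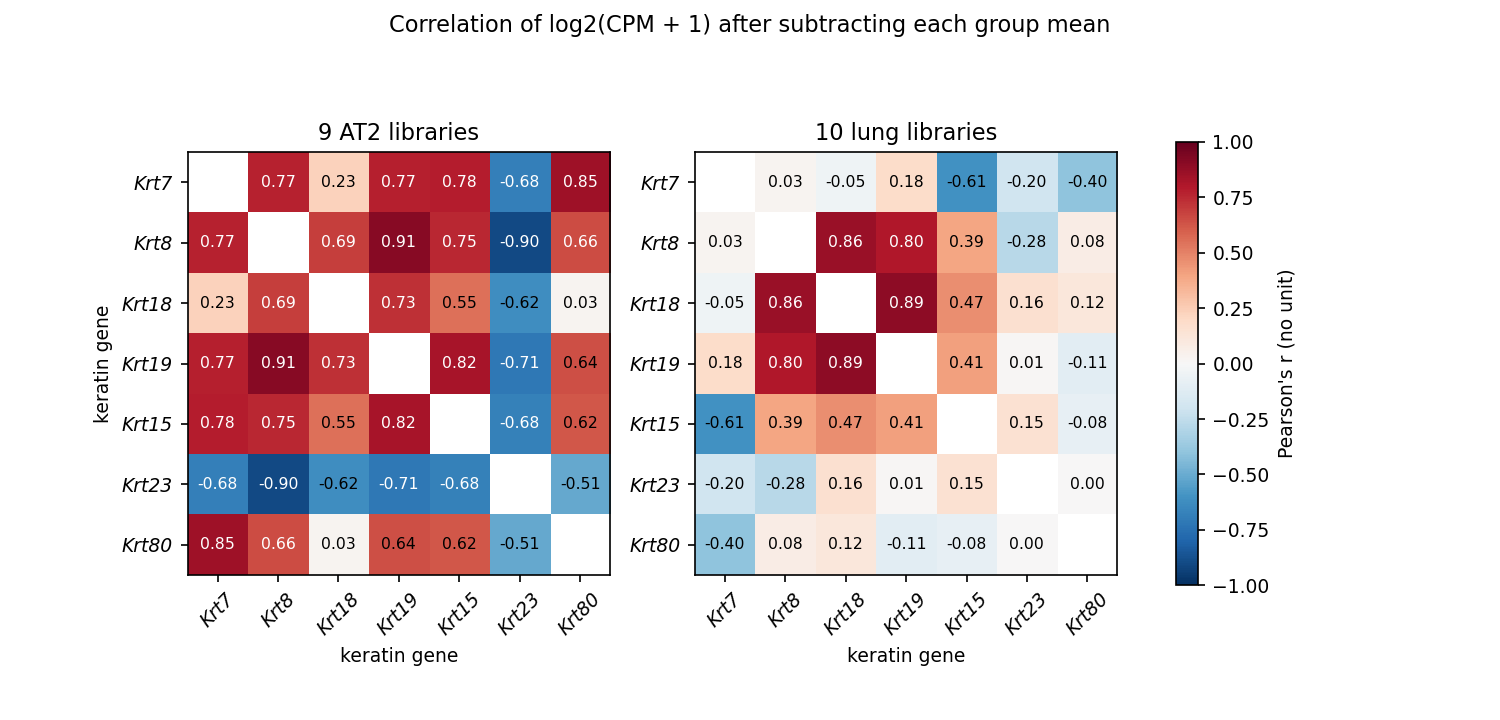
Pearson's r between members after each group's mean is subtracted from log2(CPM + 1), over 9 AT2 and 10 lung libraries. Krt8, Krt18 and Krt19 have positive r with each other in both tissues, and Krt23 has negative r with the other 6 in AT2 cells.

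The genes most like each keratin over the 19 group-centred libraries are given as a description; 12244 genes whose mean reached 5 CPM were searched. Krt8 and Krt19 were each other's nearest gene (r = 0.85), and Krt19 was also nearest to Krt18 (0.81). For Krt18 the next were Ripk4 (0.74) and Krt8 (0.73), and for Krt19 they were Krt18 (0.81) and Ezr (0.80). For Krt8 they were Nup160 and Smc3 (0.83 each). Krt7 was most like Fbln5 (0.88), Lims1 (0.87) and Scrn1 (0.83). Krt23 was most like Tmem154 (0.90), H2-T23 (0.89) and Gstt3 (0.88), Krt80 like Spef1 (0.87), Aatk (0.85) and Fbf1 (0.83), and Krt15 like Plcd4 (0.85), Fam167a (0.84) and Dnaaf3 (0.82).

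The genes that keratin filaments attach to and share the cytoskeleton with were taken as 4 further lists. These lists, too, were chosen with earlier results of these data known. Desmosomes join keratin filaments of neighbouring cells through desmoplakin and plakophilins, and plakins tie the filaments to other structures. Of 18 anchorage genes 12 could be tested in AT2 cells, and 2 rose with the Etv5KO genotype, against 5.03% of all genes called higher; DESeq2 called 4 and limma-voom 2. Plec, the plakin that links filaments to hemidesmosomes and other cytoskeletal fibres, rose from 155.8 ± 11.0 to 231.6 ± 21.0 CPM (log2 fold change 0.58, edgeR adjusted p = 0.00106), with no overlap. Perp, a desmosomal membrane protein, rose from 50.8 ± 5.80 to 63.7 ± 2.25 CPM (log2 fold change 0.33, edgeR adjusted p = 0.0216). The call for Perp was lost without AT2 control replicate 1, without AT2 Etv5KO replicate 1 or 4, and in the fit of all 19 libraries (adjusted p from 0.00253 to 0.0768 over the alternatives). The median log2 fold change of the 12 was 0.19, against -0.01 over all genes.

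Among 14 proteins that bind keratins, turn them over or control their genes, 13 could be tested and 1 rose in AT2 cells with edgeR and limma-voom; DESeq2 called 2. Sfn, the 14-3-3 sigma protein that binds keratin filaments, went from 15.8 ± 2.19 to 22.0 ± 3.59 CPM (log2 fold change 0.49, edgeR adjusted p = 0.0427). Its groups overlapped, and its call was lost on leaving out AT2 control replicate 1, 2 or 3 or AT2 Etv5KO replicate 2, 3 or 5 (adjusted p from 0.00780 to 0.118 over the alternatives). None of the 3 other keratins and 9 other intermediate filament genes tested in AT2 cells was called by edgeR, DESeq2 or limma-voom; 0 and 1 of them had an unadjusted p under 0.05 with edgeR. In lung, no gene of these 4 lists was called by any of the 3 tools, and 0 of 3 other keratins, 0 of 11 other filament genes, 2 of 13 anchorage genes and 1 of 14 binding and turnover genes had an unadjusted p under 0.05 with edgeR.

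**Figure D5:**
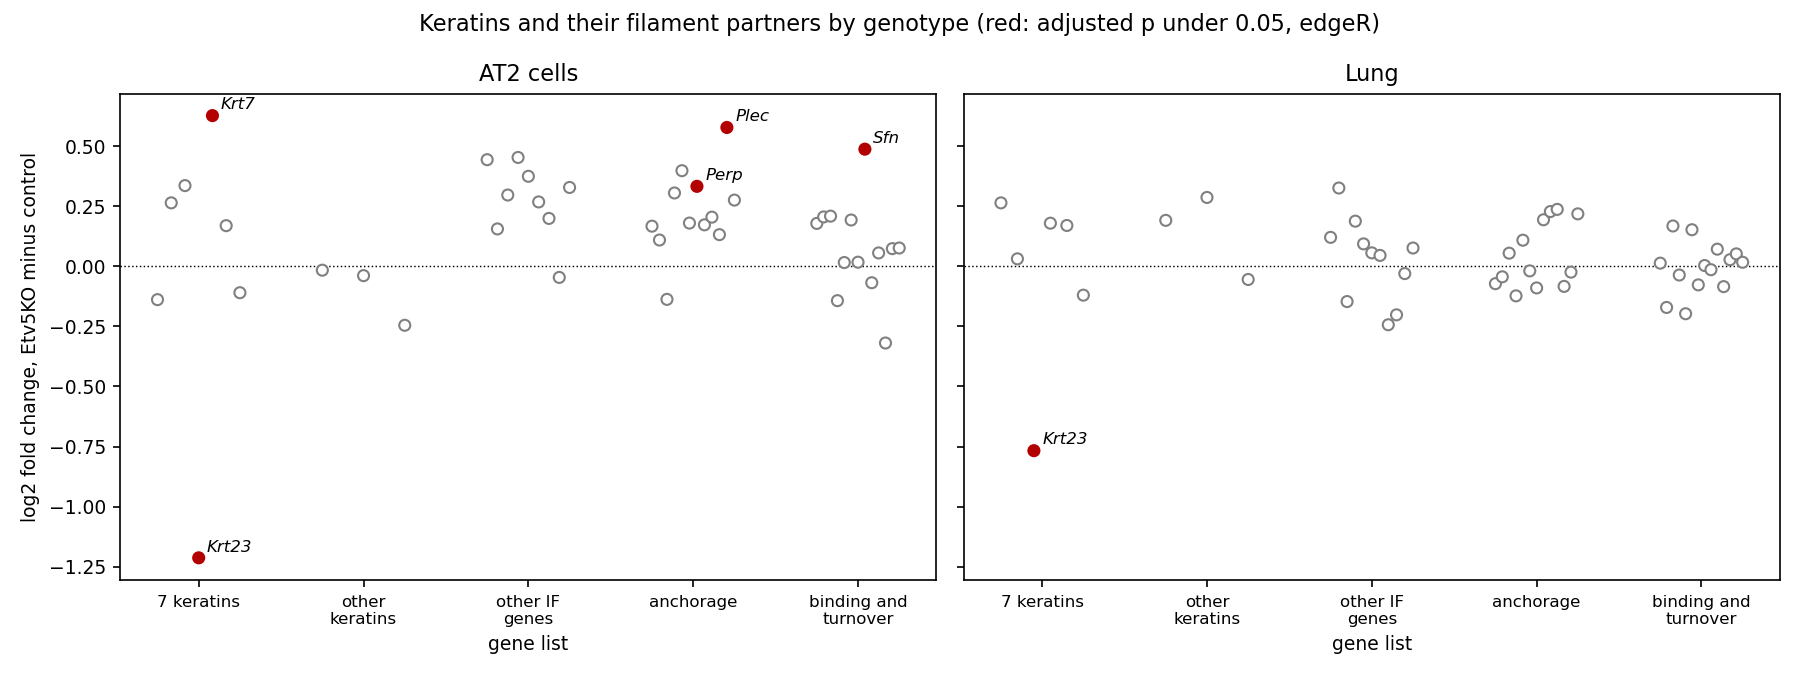
Log2 fold change, Etv5KO minus control, of each tested gene of the 7 keratins and of 4 lists of related genes, in AT2 cells and in lung; horizontal position within a list only separates the points. Red points passed the edgeR threshold: Krt7, Krt23, Plec, Perp and Sfn in AT2 cells and Krt23 in lung.

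Between control AT2 cells and control lung, 5 of 9 other filament genes tested were lower in AT2 cells and 1 was higher. Over all genes 74.5% were called in this comparison, 35.6% higher and 38.9% lower, so neither this count nor those of the lists that follow is a result about the list. Vim, the filament of mesenchymal and blood cells, had a log2 fold change of -5.21, Des, the muscle filament, -6.29, Nes -5.62 and Synm -3.01. Bfsp1, known from the lens, was higher by 1.47, and Lmna, a lamin of the nuclear envelope, had a log2 fold change of -0.37, a call that was lost without AT2 control replicate 1, 3 or 4 and in the fit of all 19 libraries (adjusted p from 0.000850 to 0.0796 over the alternatives). Of 47 other keratins, 32 had no read in AT2 controls, and their summed level was 6.47 to 11.2 CPM there and 27.9 to 34.9 CPM in lung. Of these, 4 could be tested and all 4 passed. Krt79 was 1.22 ± 0.532 CPM in AT2 cells and 25.6 ± 2.72 CPM in lung (log2 -4.37), and Krt87, a neighbour of Krt7, was 2.86 ± 2.00 and 0.303 ± 0.108 CPM (log2 3.27, or 2.69 without AT2 control replicate 2). Krt222 had no read in the 4 AT2 controls, which allows up to 0.0380 CPM over the group at 3 reads, and was 0.640 ± 0.204 CPM in lung. Krt10 was 3.49 ± 0.722 and 2.28 ± 0.286 CPM (log2 0.61), and scaling by library size alone lost its call (adjusted p from 0.00275 to 0.313 over the alternatives).

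Of the 12 anchorage genes tested between control AT2 cells and control lung, 7 were higher and 3 lower in AT2 cells, against 35.6% and 38.9% of all genes. The plakophilins Pkp2 (log2 0.98) and Pkp3 (1.13), periplakin, Ppl (1.39), and Perp (0.94) were higher, and Plec (-1.26) and Jup, plakoglobin (-0.80), were lower. Of the 14 binding and turnover genes 8 were higher and 2 lower, so that the share called was near the 74.5% over all genes. Grhl2 (1.94) and Klf5 (2.04), transcription factors of epithelia, and Sfn (1.08) were higher in AT2 cells, as were Fam83h (0.76), which binds keratin filaments, and the ubiquitin ligases Stub1 (0.62) and Rchy1 (0.55); the call for Rchy1 was lost with scaling by library size alone (adjusted p from 3.8e-09 to 0.122 over the alternatives).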

How the data were processed

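Counts and RPKM were used as deposited. A deposited count gives, per the file headers, how many reads aligned to one place only within a gene model. Per the file headers, the authors scaled the deposited RPKM by each sample's size factor (called nRPKM here); it followed the counts exactly (largest log residual 2.58e-14) and was used for levels per length. Per the submitters' processing notes, GSNAP and build mm9 were used. Not given in the sources used here: the version, annotation, counter and strand setting. Multi-mapped reads left out of the counts lower genes with near copies; no member had counts identical to another ID. Of 36528 IDs, 31049 were named from a RefSeq table (GRCm38.p6), holding 98.7% of counts.

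Each comparison was fitted on all genes with edgeR 4.0.16 in R 4.3.3: filterByExpr (minimum count 10, minimum total 15), TMM and a two-sided quasi-likelihood F test with Benjamini-Hochberg adjustment at 0.05. AT2 and lung were fitted separately, controls between tissues in a fit of 9 libraries, and the interaction over 19. SE is the log2 fold change over the square root of F. Alternatives were RLE scaling, library size alone, the authors' size factors, no low-count filter, DESeq2 1.42.0, limma-voom 3.58.1, a fit of all 19 libraries and leaving out each library. Fits were tested on simulated data. Of 200 well-counted genes changed by 1 on the log2 scale, the AT2, lung, control-tissue and interaction fits recovered 92%, 92%, 93.5% and 77.5%. Genes left unchanged made up 7.1%, 4.2%, 4.6% and 4.9% of the calls. P-values set each difference against the spread between libraries.

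All 7 members are named in every comparison; from each of 4 related lists, up to 6 called genes of smallest p; for each member, the 3 genes with the highest r. Members and lists were chosen with earlier results of these data known, and Krt7 in AT2 cells was among those results.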

Additional observations from a re-analysis of the deposited data

Results flagged for a closer look

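In 4 of 60 groups of values, 1 library stood apart by Dixon's criterion, which chance meets in about 1 of 20 groups. Lung control replicate 4 had a summed per-length level of the 7 keratins of 400.04 nRPKM, against 347 to 360.2 nRPKM in the other 4 lung controls. The other 3 cases are AT2 control replicate 2 and are not independent of each other. Its type II chains made up 36.4% of the keratin sum, against 28.5% to 29.8% in the other 3 AT2 controls, and its Krt7 and Krt19 together 28.9%, against 23.9% to 24.4%. Its ratio of Krt8 to Krt18 was 0.459, against 0.345 to 0.363. This library also stood apart on the second principal component of the AT2 libraries. On the first component it lay between the other AT2 controls and the AT2 Etv5KO libraries.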

How the results depend on the processing

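No paired analysis was possible because the replicate numbers follow accession order and the labels tie no library to a mouse, so no replicate block was fitted. With DESeq2, 4 keratins passed in AT2 cells, and over all genes 197 passed in lung and 467 in the interaction (71 and 282 with edgeR); the fit of all 19 libraries called 122 in lung. Leaving out each library in turn gave 2 to 3 keratins and 1062 to 1587 genes in AT2 cells, 0 to 1 keratins and 44 to 80 genes in lung (44 without lung control replicate 4, 47 without lung control replicate 3), 7 keratins and 12038 to 12986 genes between control tissues, and 0 to 1 keratins and 198 to 319 genes in the interaction. Signs turned only for log2 values that passed no threshold. The interaction for Krt8 became 0.0054 with RLE, 0.041 with library size alone, 0.0074 with the authors' size factors, 0.013 with no filter and 0.0053 with DESeq2; for Krt18 it became 0.0049, 0.047, 0.0067, 0.012 and 0.0051, and for Etv5 0.026 with library size alone. With 1 library left out, the ranges were -0.38 to 0.075 for Krt15 and -0.20 to 0.022 for Krt80 in AT2 cells, -0.036 to 0.080 for Krt19 in lung, and in the interaction -0.11 to 0.10 for Krt8, -0.062 to 0.061 for Krt18, -0.54 to 0.30 for Krt15, -0.10 to 0.15 for Krt80 and -0.086 to 0.040 for Etv5. The cause was not tested. Depth limits Krt15, which had 0 to 37 reads per library.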
